A study of Mus musculus with 10 samples.

Results

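The 51 genes described here encode parts of the mitochondrial respiratory chain, the mitochondrial ribosome and the mitochondrial protein import machinery, measured in mouse liver. They were taken from 7542 genes that had a probe set with a single symbol on an Affymetrix MG_U74Bv2 array. A gene was a member if its symbol began with Nduf, Uqcr, Sdha to Sdhd, Cox followed by a digit, Atp5, Mrpl, Mrps, Timm or Tomm, and each was read through its probe set with the highest mean over 10 arrays. No gene whose symbol begins with Atp5 was found by this rule, so the ATP synthase is not described here. The members fall into 10 classes by symbol. They hold 3 complex I subunits, 5 complex I assembly factors, 4 genes of complex II and 1 of complex III. Complex IV has 3 subunits and 3 assembly factors. Mitochondrial ribosomal genes number 9 of the large (Mrpl) and 15 of the small subunit (Mrps). Mrps30 is counted with the latter by its symbol, though its protein sits in the large subunit. Import has 5 inner membrane and 3 outer membrane genes.

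The samples were 5 pools of liver RNA, each made from 5 mice (20 µg in total) and hybridised to 2 arrays. TgSREBP-1a and TgSREBP-2 mice carry a transgene for the nuclear, active form of human SREBP-1a or SREBP-2, and they and their wild type littermates were males of 12 to 16 weeks that were kept for 2 weeks on a diet high in protein and low in carbohydrate. Scap-/- mice lost Scap in the liver through an MX1-Cre transgene, and they and their wild type controls were chow-fed males of 10 to 12 weeks that all received 4 injections of polyinosinic-polycytidylic acid, with livers taken 14 days after the last. As background, the Mx1 promoter answers to interferon and is active in other cells besides hepatocytes. The sources used here do not say whether the wild type controls of the Scap study carried the unrecombined allele. The 2 arrays of a group share 1 pool, so the p-values below set pools against hybridisation error and say nothing of the spread between mice.

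SREBPs are transcription factors that switch on cholesterol and fatty acid synthesis, and SCAP carries their precursors to the Golgi for cleavage. Lipid synthesis draws acetyl groups and ATP from mitochondria. The respiratory chain passes electrons from NADH (complex I) and succinate (complex II) through coenzyme Q to complex III and on to oxygen at complex IV. A few of its subunits are made inside the organelle by the mitochondrial ribosome, whose proteins are all encoded in the nucleus. They and the other nuclear-encoded subunits enter through the TOM complex of the outer membrane and the TIM complexes of the inner membrane. Hepatocytes are rich in mitochondria, and NRF1 and the ETS factor GABPA are known activators of many genes of this kind.

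Values are log2 expression values as deposited. Of the members, 26 had a mean above the median of all probe set means (5.65) and 25 did not, and no detection calls were used, so differences among the dim members are differences near the background of the array. For 13 members the probe set name carries a suffix (f, r or i) that the manufacturer gives to sets with shared or fewer unique probes, and their signal could come in part from related sequences. These are Cox4i1, Cox6a1, Mrpl24, Mrps28, Sdhc and Uqcrc1 (f), Cox11, Mrps5, Mrps27 and Ndufaf2 (r), and Cox6b1, Mrpl53 and Mrps15 (i). Duplicate arrays of a group correlated between 0.9871 and 0.9944. The second TgSREBP-2 array was closer to the second array of its wild type littermates than to its own duplicate, and each array of the Scap study resembled one of the other group more than its duplicate. The brighter Scap probe set read 7.94 and 7.75 on the Scap-/- arrays and between 8.51 and 9.24 on the other 8, and its other probe set read between 3.37 and 3.91 on all 10. Of the defining markers of other cell types, the 3 measured genes of pancreatic acinar cells (of 11 listed) differed most, with summed linear signals of 260 to 269 in Scap-/-, 912 to 1114 in its wild type pool, 1970 to 2642 in the transgenic study's wild type pool, 227 to 228 in TgSREBP-1a and 3217 to 4228 in TgSREBP-2. The 4 measured hepatocyte markers (of 20) summed to 11063 to 12924, 13119 to 14545, 12803 to 14398, 8802 to 9592 and 7267 to 12921 in the same order. Most of each sum was Apoa1, which read 13.32 and 12.22 on the TgSREBP-2 arrays. Hnf4a (10.36 and 10.25), C8a (9.05 and 8.83) and C8b (9.73 and 9.7) differed less between those arrays. In a bulk sample, fewer cells of a type and less RNA per cell cannot be told apart.

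None of the 51 genes was called in any of 5 comparisons, where a call needed an adjusted p under 0.05 (limma with Benjamini-Hochberg adjustment over 12411 probe sets) and at least a 1.5-fold change. The share of all probe sets called was 2.18% for TgSREBP-1a against wild type, 0.500% for TgSREBP-2, 0.274% for Scap-/-, 1.86% for TgSREBP-1a against TgSREBP-2 and 0.508% for the wild type pools of the 2 studies against each other. With shares so low, a count of 0 among 51 genes stands near the background. At an unadjusted p under 0.05, limma gave 3, 1, 2, 4 and 12 of the 51 members in the same order. The shares of all probe sets were 10.3%, 7.92%, 7.74%, 14.7% and 9.70%. Limma with a mean-dependent prior (limma-trend) also called 0 members each time. The 95% confidence interval of the fold change lay within 2-fold either way for all 51 members in the first 4 comparisons (97.1%, 98.4%, 98.0% and 97.0% of all probe sets) and for 49 in the comparison of the wild type pools (98.1%). For the 25 members not above the median signal, such an interval bounds a signal near the array's background and need not bound the RNA. For all members the intervals, like the p-values, rest on hybridisation error between single pools and say nothing of the spread between mice.

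**Figure D1:**
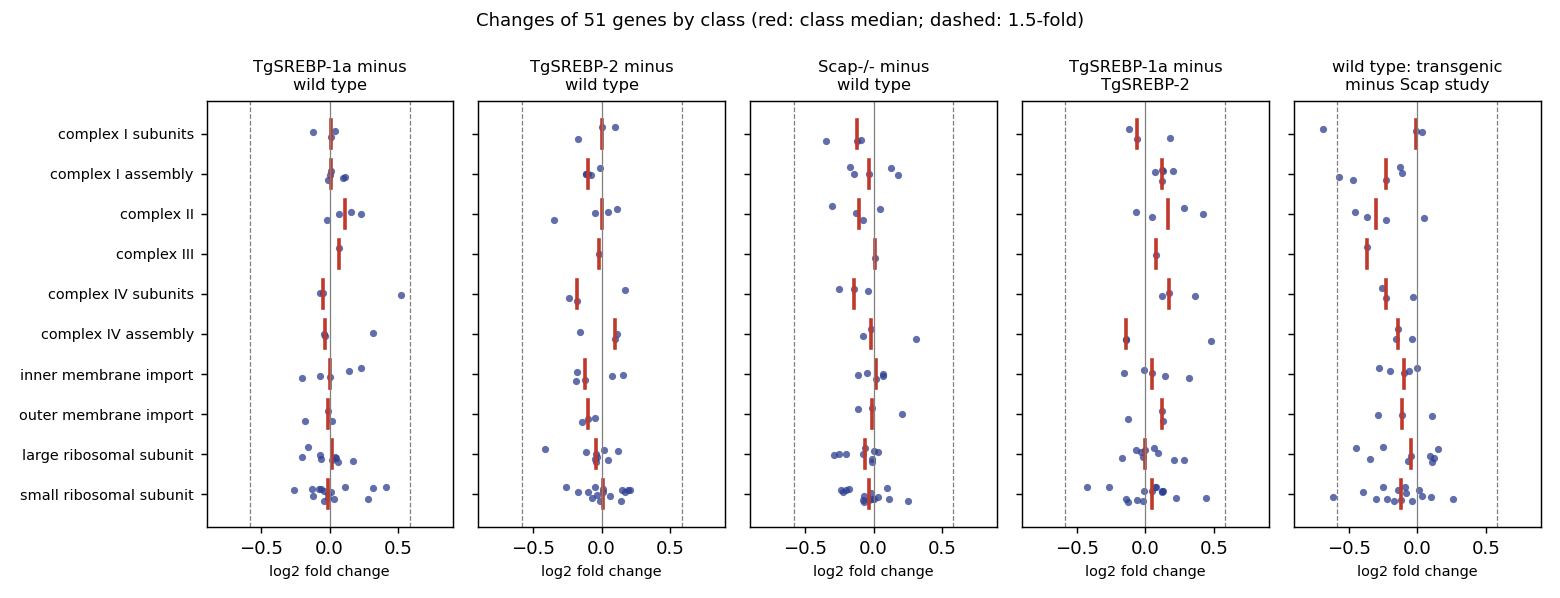
Log2 fold changes of the 51 genes (points) in the 5 comparisons, with 1 row per class, the class median as a red bar and 1.5-fold as dashed lines. In the first 4 panels all points lie inside the dashed lines, and in the comparison of the wild type pools Ndufs7 (-0.69) and Mrps18c (-0.62) lie outside.

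The promoters of 6 members on which the comparisons below turn are shown first. Uqcrc1, a core protein of complex III, Sdhaf4, an assembly factor of complex II, Ndufaf8, a partner of the complex I assembly factor Ndufaf5, and Ndufs7, the iron-sulfur subunit of complex I that hands electrons to coenzyme Q, read higher in the Scap study than in the transgenic study. Cox6a1, a nuclear-encoded subunit of complex IV, and Mrps6, a protein of the small ribosomal subunit, read highest in TgSREBP-1a. Sequences are from RefSeq (GRCm38.p6), 300 bases from 250 before to 50 after the annotated start, written 5′ to 3′ on the gene's strand, with matches to the NRF1 motif (GCGCA, any base, then GCGC, or its reverse complement) and the ETS motif (CCGGAAG, or CTTCCGG) in capitals.
Uqcrc1 (chr9:108936398-108936697, plus strand): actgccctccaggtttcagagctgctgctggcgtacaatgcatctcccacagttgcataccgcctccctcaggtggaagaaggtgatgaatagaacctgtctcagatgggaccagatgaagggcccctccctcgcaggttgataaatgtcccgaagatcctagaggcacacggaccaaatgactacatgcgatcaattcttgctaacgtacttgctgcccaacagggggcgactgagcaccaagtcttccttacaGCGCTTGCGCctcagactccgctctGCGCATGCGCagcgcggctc
Sdhaf4 (chr1:24005591-24005890, minus strand): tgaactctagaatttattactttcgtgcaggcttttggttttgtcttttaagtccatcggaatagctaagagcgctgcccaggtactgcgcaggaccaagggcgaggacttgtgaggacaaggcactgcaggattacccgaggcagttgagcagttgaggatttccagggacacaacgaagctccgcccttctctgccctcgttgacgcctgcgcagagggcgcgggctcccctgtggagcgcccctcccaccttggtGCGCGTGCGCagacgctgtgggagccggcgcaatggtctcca
Ndufaf8 (chr11:120098684-120098983, plus strand): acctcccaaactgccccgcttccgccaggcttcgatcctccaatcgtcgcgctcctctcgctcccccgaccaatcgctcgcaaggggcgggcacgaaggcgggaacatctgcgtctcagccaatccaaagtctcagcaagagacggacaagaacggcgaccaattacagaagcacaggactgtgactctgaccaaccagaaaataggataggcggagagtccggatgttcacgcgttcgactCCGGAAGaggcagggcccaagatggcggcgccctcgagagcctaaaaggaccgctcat
Ndufs7 (chr10:80249199-80249498, plus strand): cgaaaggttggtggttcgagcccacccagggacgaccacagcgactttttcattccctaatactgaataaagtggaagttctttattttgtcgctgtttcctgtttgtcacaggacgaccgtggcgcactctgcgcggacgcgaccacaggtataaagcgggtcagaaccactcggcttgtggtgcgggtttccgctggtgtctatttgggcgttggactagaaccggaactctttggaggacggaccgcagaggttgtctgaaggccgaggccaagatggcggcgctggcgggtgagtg
Cox6a1 (chr5:115348909-115349208, minus strand): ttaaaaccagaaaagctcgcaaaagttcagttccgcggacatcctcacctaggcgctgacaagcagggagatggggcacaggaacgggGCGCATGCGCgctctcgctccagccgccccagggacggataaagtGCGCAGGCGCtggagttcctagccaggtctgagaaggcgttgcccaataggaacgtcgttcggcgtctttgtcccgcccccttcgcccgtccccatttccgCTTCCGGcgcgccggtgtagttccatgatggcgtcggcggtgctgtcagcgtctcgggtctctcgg
Mrps6 (chr16:92058086-92058385, plus strand): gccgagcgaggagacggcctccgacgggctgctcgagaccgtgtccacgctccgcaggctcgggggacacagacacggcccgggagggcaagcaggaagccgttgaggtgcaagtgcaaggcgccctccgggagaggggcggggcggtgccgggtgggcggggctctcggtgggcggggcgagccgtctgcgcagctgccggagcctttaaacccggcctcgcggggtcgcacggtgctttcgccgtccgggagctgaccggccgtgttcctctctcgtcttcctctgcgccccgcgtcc

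In Uqcrc1 the NRF1 motif begins 5 and 30 bases after the start, and in Sdhaf4 it begins 8 bases after it. Cox6a1 holds it 162 and 117 bases before the start, with an ETS motif 16 bases before, and Ndufaf8 holds an ETS motif 8 bases before. The windows of Ndufs7 and Mrps6 hold neither motif. Nor does that of Ndufaf3, which is not shown and also read higher in the Scap study. Of 42 members with a promoter in the table (9 had none), 11 (26.2%) held the NRF1 motif, against 10.1% of 6037 genes on the array and 5.19% of 27025 genes in the table. Besides the 3 shown, these were Mrpl32, Mrpl39, Mrpl57, Mrps9, Ndufaf4, Ndufaf5, Sdhaf3 and Tomm20. The ETS motif was in 17 (40.5%), against 17.1% of the array's genes and 9.93% of all. The sterol response motif TCACNCCAC (GTGGNGTGA on the other strand) was in 0 of 42, against 1.52% of the array's genes and 1.44% of all, and the E-box CACGTG, which reads the same on both strands, in Mrps18c and Tomm20 (4.76%, against 10.8% and 8.09%). Both strands were searched for each motif. These are matches of letters and not measured binding, and a window without a match says nothing of the factor. The RNA of Nrf1 varied little, between 8.22 and 8.42 on its brightest probe set over the 10 arrays. Gabpa read between 3.80 and 4.10, near the background of the array, where a change could go unseen. Neither was called.

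How the members answered to SREBP-1a was asked by setting TgSREBP-1a against its wild type pool. Their median log2 fold change was 0.004, beside -0.016 over all probe sets, with single values from -0.26 to 0.52 and 26 of 51 above 0 (51%, against 44.9% of all probe sets). Both TgSREBP-1a arrays lay above both wild type arrays for 10 members (19.6%, against 19.0% of all probe sets) and below them for 4 (7.84%, against 23.4%). The ribosome (24 genes, median -0.008) and the respiratory chain with import (27 genes, median 0.008) both centred near 0.

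Among the complexes, Cox6a1 read 5.89 and 6.01 in TgSREBP-1a, against 5.54 and 5.31 in wild type, and TgSREBP-2 gave 5.38 and 5.80. Both TgSREBP-1a arrays were the highest of the 10, and the groups did not overlap. The difference from wild type was 0.52 ± 0.18 (SE; 1.44-fold, limma, adjusted p = 0.26), the largest of the members and not called. The other complex IV subunits, Cox4i1 (-0.05 ± 0.14) and Cox6b1 (-0.07 ± 0.13), lay near 0. Cox6b1 is dim (mean 3.35), and the mean of Cox6a1 (5.6) lay just under the median of all probe set means. Cox19, a small protein of the intermembrane space needed for complex IV assembly, had 0.32 ± 0.16 on its brightest probe set, while its other probe sets gave 0.03 and -0.14. Complex II had a median of 0.113, led by Sdhaf4 at 0.23 ± 0.10. The 3 complex I subunits lay between -0.12 and 0.04 and the 5 assembly factors between -0.01 and 0.11.

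In the ribosome, Mrps6 read 6.52 and 6.53 in TgSREBP-1a, against 6.14 and 6.09 in wild type, and TgSREBP-2 gave 6.0 and 6.16. The TgSREBP-1a arrays stood above the other 8, whose highest value was 6.40, in the Scap study's wild type pool. The difference from wild type was 0.41 ± 0.10 (1.33-fold, limma, unadjusted p = 0.0026, adjusted p = 0.079), which missed the threshold. Mrps28 (0.28 ± 0.10, limma, adjusted p = 0.31) and Mrps18c (0.32 ± 0.21, adjusted p = 0.77) followed, and the other Mrps18c probe set gave 0.03. The lowest values were Mrps15 (-0.26 ± 0.13), which is dim, and Mrpl47 (-0.20 ± 0.17), whose other probe set gave 0.10. Mrpl19 (-0.16 ± 0.12) lay below wild type without overlap, and Mrps27 had -0.13 ± 0.19, with 0.04 on its other probe set. Of the import genes, Timm50, the receptor of the inner membrane translocase, had 0.23 ± 0.12, and Timm44, which tethers the import motor, -0.20 ± 0.13. Tomm40l, a relative of the outer membrane channel, had -0.18 ± 0.29, an error set by duplicates that differed by up to 1.05 (in TgSREBP-2). In this comparison 2 of 4 measured hepatocyte markers, C8a (-2.60 ± 0.24) and C8b (-2.22 ± 0.16), fell, and the only measured macrophage marker, Cd163 (0.91 ± 0.15), and 1 of 5 endothelial ones, Lyve1 (0.64 ± 0.10), rose (limma, adjusted p = 0.00018, 3.2e-05, 0.008 and 0.0059). Of the 3 measured acinar markers, Cpb1 (-4.67 ± 0.21) and Cela3b (-3.84 ± 0.16) fell as well (limma, adjusted p = 1.1e-06 and 8.7e-07). Their part in the members' values was not tested.

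**Figure D2:**
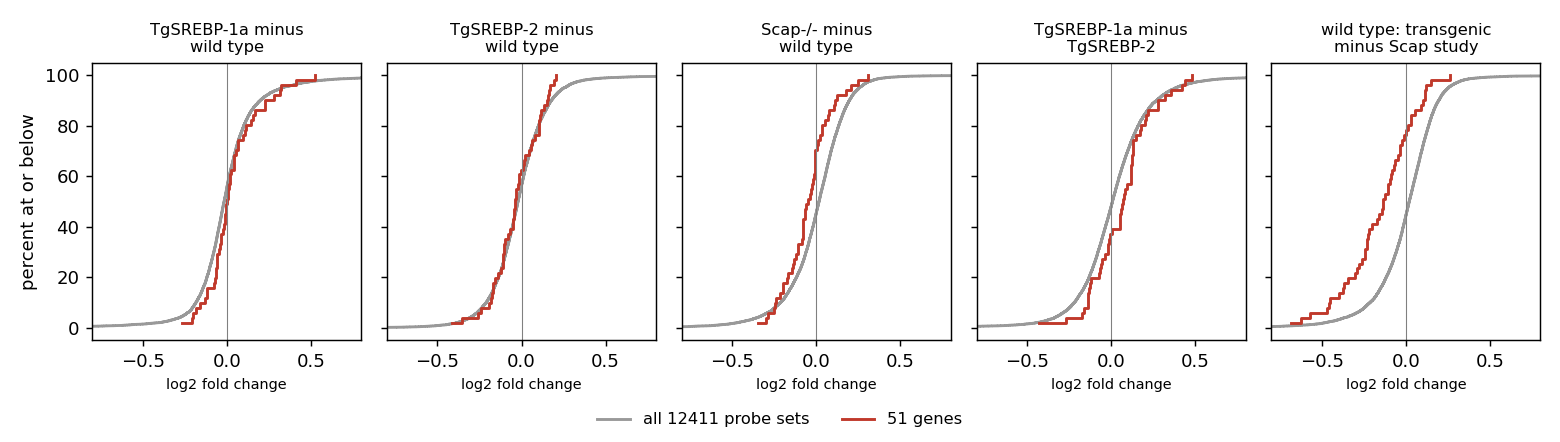
Cumulative distribution of log2 fold changes in the 5 comparisons, as the percent of the 51 genes (red) or of all 12411 probe sets (grey) at or below each value. The curves run together for TgSREBP-1a against wild type (medians 0.004 and -0.016), and the red curve lies to the left of the grey one between the wild type pools (medians -0.134 and 0.019).

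For SREBP-2, TgSREBP-2 was set against the same wild type arrays, which the preceding comparison also used. The members' median was -0.038, beside -0.021 over all probe sets, with values from -0.41 to 0.21 and 19 above 0 (37.3%, against 43.6%). Non-overlapping arrays put 8 members higher (15.7%, against 15.6%) and 11 lower (21.6%, against 24.4%). Respiratory chain and import genes had a median of -0.083 and ribosomal genes one of -0.022.

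The lowest member was Mrpl47 of the large ribosomal subunit, at 6.22 and 6.49 in TgSREBP-2, against 6.89 and 6.65 in wild type. The groups did not overlap, and the TgSREBP-1a arrays, at 6.71 and 6.41, lay across the gap. The difference was -0.41 ± 0.17 (limma, adjusted p = 0.57), while the other Mrpl47 probe set gave 0.18 ± 0.13. Sdhb, the iron-sulfur subunit of complex II, read 7.24 and 7.89 in TgSREBP-2, against 8.12 and 7.72 in wild type. Its first TgSREBP-2 array was the lowest of the 10 and its second lay inside the wild type pair, so the difference of -0.35 ± 0.25 rests on 1 array. Cox6b1 (-0.24 ± 0.13) and Cox4i1 (-0.18 ± 0.14) of complex IV, Mrps23 (-0.26 ± 0.16) and Timm44 (-0.19 ± 0.13) followed. All 5 complex I assembly factors lay between -0.11 and -0.01. At the upper end stood Mrps28 (0.21 ± 0.10), Mrps18c (0.19 ± 0.21), Mrps15 (0.17 ± 0.13), Cox6a1 (0.17 ± 0.18, with overlapping arrays), Timm10b (0.16 ± 0.12), a small chaperone of inner membrane import, and Mrps12 (0.15 ± 0.12), a protein of the decoding centre. The first TgSREBP-2 array was also the lowest of all arrays for the members as a whole: the median deviation from each gene's mean was -0.168 there and -0.049 on its duplicate. On the first arrays alone the members' median was -0.119 and on the second alone 0.008. The log2 ratio of 3′ to 5′ Gapdh probe sets, a measure of RNA length, was 0.97 on the first and 0.46 on the second TgSREBP-2 array. Of the cell type markers, Ctrc (1.51 ± 0.10), 1 of 3 acinar ones, and Tfrc (1.5 ± 0.23), the only measured one of the red cell list, were called higher here (limma, adjusted p = 8.9e-05 and 0.016). The part of RNA length and of these markers in the members' values was not tested.

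The loss of SCAP, which lowers all nuclear SREBPs together, was read in Scap-/- against its wild type pool. The members' median was -0.05, beside 0.016 over all probe sets, with values from -0.35 to 0.31 and 15 above 0 (29.4%, against 54.4%). Arrays did not overlap for 4 members that were higher (7.84%, against 20.0%) and 7 that were lower (13.7%, against 14.4%). The medians of the ribosome (-0.047) and of the chain with import (-0.05) were alike in size. Leaving out single arrays moved the members' median from -0.1 (without the first Scap-/- array) to 0.008 (without the second), and it was 0.003 without the first wild type array. Of the cell type markers, 2 of 3 acinar ones, Cpb1 (-3.21 ± 0.21) and Cela3b (-1.89 ± 0.16), were called lower in Scap-/- (limma, adjusted p = 0.00014 and 0.00097) and 0 of 4 hepatocyte ones. Their part in the members' values was not tested.

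Cox11, which delivers copper to complex IV, read 7.34 and 7.45 in Scap-/- and 6.98 and 7.20 in its wild type pool. Both Scap-/- arrays were the highest of the 10, and the groups did not overlap. The difference was 0.31 ± 0.10 (1.24-fold, limma, unadjusted p = 0.012, adjusted p = 0.54) and was not called. Mrps9 (0.25 ± 0.16), Tomm40l (0.21 ± 0.29), Ndufaf2 (0.18 ± 0.13), a late assembly factor of complex I, Ndufaf5 (0.13 ± 0.11) and Mrps12 (0.11 ± 0.12) followed. The lowest value was that of Ndufs7, which read 9.37 and 8.92 in Scap-/- and 9.70 and 9.29 in wild type. The pairs overlapped, with the first array of each pair above the second, and the difference was -0.35 ± 0.20 (limma, adjusted p = 0.69). Sdhb (-0.30 ± 0.25), Mrpl47 (-0.29 ± 0.17), Cox6a1 (-0.25 ± 0.18), Mrpl1 (-0.25 ± 0.11) and Mrps30 (-0.24 ± 0.13), whose protein sits in the large subunit despite its name, were the next. The other Mrpl47 probe set gave -0.01. Mrpl1 was the second member with an unadjusted p under 0.05 (0.043; limma, adjusted p = 0.64), and its other probe set gave -0.14.

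TgSREBP-1a was set against TgSREBP-2 to ask whether the factors differed in their effect. The members' median was 0.073, beside 0.007 over all probe sets, with 32 above 0 (62.7%, against 51.9%) and values from -0.43 to 0.48. Arrays did not overlap for 15 members higher in TgSREBP-1a (29.4%, against 25.3%) and 5 higher in TgSREBP-2 (9.8%, against 20.7%). The chain and import genes had a median of 0.12 and the ribosomal genes one of 0.027. Among the 26 brighter members the median was 0.126, beside 0.016 over the brighter probe sets. On the first arrays alone the members' median was 0.09 and on the second alone 0.05.

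Mrps6, with the array values given above, differed by 0.44 ± 0.10 (1.36-fold, limma, unadjusted p = 0.0016, adjusted p = 0.061), the smallest p of the members here. Cox19 read 8.69 and 8.48 in TgSREBP-1a and 8.13 and 8.08 for TgSREBP-2, with no overlap. Its difference was 0.48 ± 0.16 (limma, adjusted p = 0.19), and its other probe sets gave 0.27 and -0.31, so they do not share a direction. Mrps15 lay the other way, at 3.55 and 3.61 in TgSREBP-1a, against 4.19 and 3.84 in the other line, near the background of the array. The groups did not overlap, and the difference was -0.43 ± 0.13 (limma, adjusted p = 0.16). Without the second TgSREBP-2 array it was -0.61 and was called (limma, adjusted p = 0.047). Sdhb (0.42 ± 0.25), Cox6a1 (0.36 ± 0.18), Timm21 (0.32 ± 0.16), which links the inner to the outer translocase, and Sdhaf4 (0.28 ± 0.10) followed on the TgSREBP-1a side. On the TgSREBP-2 side stood Mrps27 (-0.27 ± 0.19), Mrpl19 (-0.17 ± 0.12), Timm10b (-0.16 ± 0.12), Cox11 (-0.14 ± 0.10) and Cox10 (-0.14 ± 0.11), the enzyme that makes heme O for complex IV. The other Cox10 probe set gave 0.03. All 3 measured pancreatic acinar markers and 2 of 4 hepatocyte markers were called lower in TgSREBP-1a here, as was Tfrc of the red cell list, and 2 of 5 endothelial markers and Cd163 were called higher. Their part in the members' values was not tested.

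**Figure D3:**
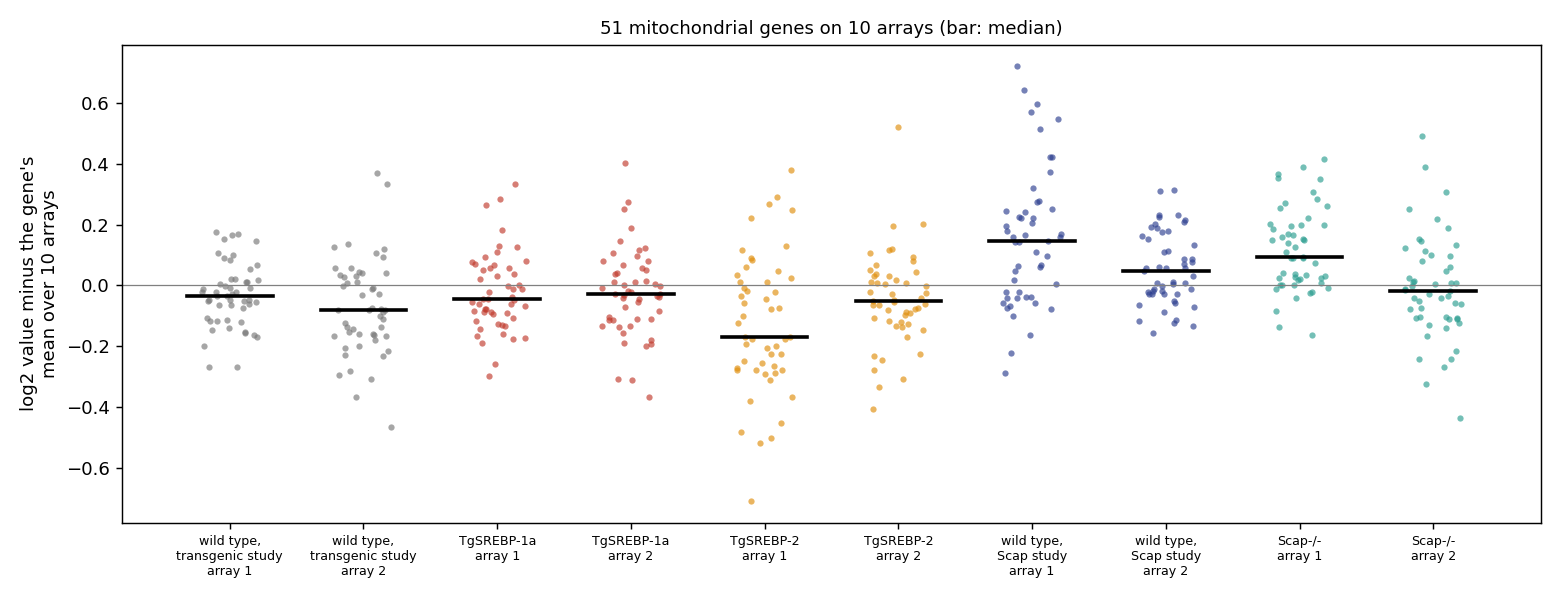
Log2 value of each of the 51 genes on each of the 10 arrays minus that gene's mean over the 10 (points), with the array's median as a bar. The medians of the 4 arrays of the Scap study lie between -0.015 and 0.15 and those of the 6 arrays of the transgenic study between -0.168 and -0.028.

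The members' median lay farthest from that of all probe sets between the studies. The transgenic study's wild type pool was set against the Scap study's, and these differ in diet, age, the injections and every other feature of the studies, which cannot be told apart. The members' median was -0.134 (transgenic study minus Scap study), beside 0.019 over all probe sets, with 12 of 51 above 0 (23.5%, against 55.2%). Both arrays of the transgenic study's pool lay below both of the Scap study's for 23 members (45.1%, against 17.4% of all probe sets) and above them for 5 (9.8%, against 24.5%). Among the 26 brighter members 15 lay lower without overlap (57.7%, against 18.3% of the brighter probe sets), with a median of -0.208 beside 0.024. The medians were -0.159 for the chain with import and -0.086 for the ribosome. On the first arrays alone the members' median was -0.168 and on the second alone -0.146.

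Ndufs7 read 9.0 and 8.61 in the transgenic study's wild type pool, against 9.70 and 9.29 in the Scap study's. The groups did not overlap, and the first array of each pair was the higher. The difference was -0.69 ± 0.20 (1.61-fold lower, limma, adjusted p = 0.26). With the array number as a replicate block this gene and Mrps18c (-0.62 ± 0.21; adjusted p = 0.35 without the block) were called, and the closing section gives those values. The other Mrps18c probe set gave -0.13.

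Of the complex I assembly factors, Ndufaf8 read 7.79 and 7.72 in the transgenic study's pool and 8.47 and 8.18 in the Scap study's. Its difference was -0.57 ± 0.13 (1.49-fold lower, limma, unadjusted p = 0.0011, adjusted p = 0.12), and it was -0.72 and called without the second wild type array of the Scap study (limma, adjusted p = 0.049). Ndufaf3, which acts with Ndufaf4 at an early step of assembly, read 6.51 and 6.64 against 7.15 and 6.94, a difference of -0.47 ± 0.12. Neither gene's groups overlapped. All 5 assembly factors lay below 0, from -0.57 to -0.11. In complex II, Sdhaf4 read 5.55 and 5.57 against 6.07 and 5.96 (-0.46 ± 0.10, limma, adjusted p = 0.12). Uqcrc1 of complex III read 5.68 and 5.60 against 6.04 and 5.98 (-0.37 ± 0.10), again without overlap.

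In the ribosome, Mrpl32 (-0.45 ± 0.19), Mrps35 (-0.40 ± 0.14), Mrpl47 (-0.35 ± 0.17) and Mrps34 (-0.30 ± 0.10) were among the lower members. The other Mrpl47 probe set gave -0.05. Tomm20, an import receptor of the outer membrane, had -0.29 ± 0.11 and Timm50 -0.28 ± 0.12. The highest values were Mrps27 (0.26 ± 0.19), whose other probe set gave -0.31, Mrpl48 (0.15 ± 0.09), Mrpl24 (0.12 ± 0.09), Mrpl57 (0.11 ± 0.12), Tomm40l (0.11 ± 0.29) and Mrps12 (0.10 ± 0.12). The complex I subunits Ndufab1 (-0.01 ± 0.11) and Ndufs3 (0.03 ± 0.09), both dim, did not separate. Of the 9 genes of the large subunit by symbol, 4 lay higher without overlap (44.4%, against 24.5% of all probe sets) and 3 lower (33.3%, against 17.4%). Mrps30, whose protein also sits there, read 5.35 and 5.25 against 5.51 and 5.52 and lay lower too.

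All pools of the studies were also set against each other, 3 pools (6 arrays) against 2 (4 arrays). This comparison was chosen after the data had been seen. It uses the arrays of the wild type pools again, so it is not independent of the comparison of those pools. The members' median was -0.106, beside 0.003 over all probe sets. None was called, against 1.57% of all probe sets. At an unadjusted p under 0.05, limma gave 22 of the 51 members, against 2653 of 12411 probe sets (21.4%). With no minimum fold, 7 members were lower at an adjusted p under 0.05 and 0 higher, against 2.89% and 2.55% of all probe sets. These were Ndufaf8 (-0.50 ± 0.08, limma, adjusted p = 0.0067), Ndufaf3 (-0.43 ± 0.07, 0.0095), Uqcrc1 (-0.37 ± 0.07, 0.011), Mrps34 (-0.33 ± 0.07, 0.017), Sdhaf4 (-0.33 ± 0.07, 0.019), Ndufs7 (-0.57 ± 0.13, 0.033) and Tomm20 (-0.29 ± 0.07, 0.036). Ndufs7 passed 1.5-fold and was called when the second array of either pool of the Scap study, the first wild type array of the transgenic study or the first TgSREBP-1a array was left out (-0.68 to -0.63, limma, adjusted p from 0.019 to 0.041). An exact permutation test over 3 against 2 pools could not go below p = 0.1.

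All 6 arrays of the transgenic study lay below all 4 of the Scap study for 6 members: Ndufaf3, Ndufaf8, Uqcrc1, Mrps34, Mrps35 and Tomm20 (11.8%, against 2.97% of all probe sets). Mrpl48 alone lay higher throughout (1.96%, against 2.77%). The gap was within rounding for Mrps35, whose nearest arrays of the studies both read 4.82, and for Mrpl48, where both read 4.93. Mrps34, Mrps35 and Mrpl48 are dim, with means under the median of all probe set means. Ndufaf8 ran from 7.62 to 7.94 in the transgenic study and from 8.05 to 8.47 in the Scap study. Uqcrc1 ran from 5.49 to 5.74 and from 5.98 to 6.05, so the transgenic and the Scap-/- arrays lay on the same side of the gap as their own wild type arrays. For Ndufs7 and Sdhaf4 the ranges touched, since the first TgSREBP-1a array (9.01 and 5.86) reached above the second Scap-/- array (8.92 and 5.81). On the first arrays alone the members' median was -0.186 and on the second alone -0.038, beside 0.001 and 0.002 over all probe sets.

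The separation stood beside other differences between the studies' arrays. The Gapdh 3′ to 5′ ratio ran from 0.82 to 0.99 in the Scap study and from 0.46 to 0.97 in the transgenic study, and that of beta-actin from 1.01 to 1.39 and from 0.84 to 1.27. Between the wild type pools, Cela3b (1.61 ± 0.16, limma, adjusted p = 0.0031) was the only marker called, of 3 acinar ones, and 0 of 4 hepatocyte markers were called. Between all pools, 2 of 4 hepatocyte markers were called lower in the transgenic study and the 3 acinar markers higher, but the arrays of the studies overlapped for each of these 5. The hepatocyte marker C8a read 6.43 and 6.30 in TgSREBP-1a, from 8.80 to 9.13 on the other 4 arrays of the transgenic study and from 8.51 to 9.39 in the Scap study. The part of RNA length and of cell makeup in the members' values was not tested.

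**Figure D4:**
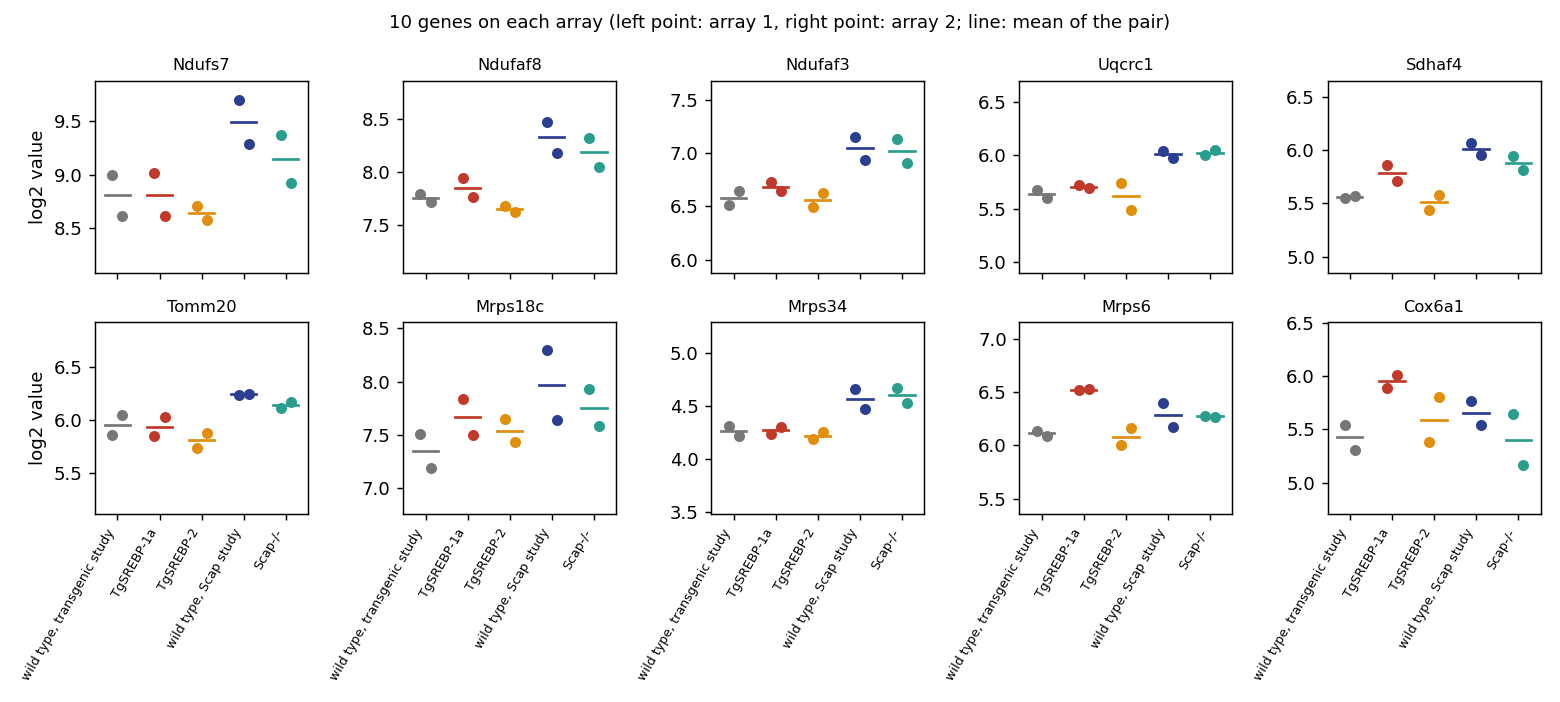
Log2 values of 10 genes on each of the 10 arrays (left point array 1, right point array 2, line the mean of the pair), each panel on its own axis. Ndufaf8, Ndufaf3, Uqcrc1, Tomm20 and Mrps34 lie higher on all 4 arrays of the Scap study than on the 6 others, and Mrps6 (6.52 and 6.53) and Cox6a1 (5.89 and 6.01) are highest in TgSREBP-1a.

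Mitochondrial genes outside the 3 machineries were read from 7 lists. In TgSREBP-1a, 2 of 8 measured genes of coenzyme Q synthesis rose and 0 fell, 1 of 11 genes of the citric acid cycle and pyruvate entry fell, and 1 of 8 carriers fell, where 2.18% of all probe sets were called. None of 12 further electron carriers and assembly factors, 21 genes of mitochondrial translation and RNA, 11 import chaperones and proteases and 10 regulators of mitochondrial biogenesis and dynamics was called (limma; 0, 0, 3 and 1 at an unadjusted p under 0.05, against 10.3% of all probe sets). Over these 4 lists the medians were -0.05, -0.051, 0.084 and -0.032. The lowest value of the import chaperones and proteases, -0.88, was that of Clpx. It read 8.98 and 8.6 in TgSREBP-1a against 9.98 and 9.36 in wild type, without overlap, and was not called. Over the 7 lists, limma gave 13 of 81 genes at an unadjusted p under 0.05 (16%, against 10.3%).

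Coq8b, an atypical kinase needed to make coenzyme Q, read 9.14 and 9.10 in TgSREBP-1a and 8.42 on both wild type arrays. It rose by 0.70 ± 0.12 (1.63-fold, limma, adjusted p = 0.0083). Its relative Coq8a read 9.78 and 9.51 against 9.05 and 8.77 and rose by 0.73 ± 0.13 (1.66-fold, limma, adjusted p = 0.01). Neither gene's groups overlapped. In TgSREBP-2 they read 8.63 and 8.52 (Coq8b) and 9.43 and 9.26 (Coq8a), and neither was called against wild type. In Scap-/- liver Coq8a read 9.17 and 9.12 against 9.81 and 9.84 in wild type, a difference of -0.68 ± 0.13 that was not called (limma, adjusted p = 0.082). Between the wild type pools (transgenic minus Scap study) its difference was -0.91 ± 0.13 and was called (limma, adjusted p = 0.012), a call that ended without the first wild type array of the Scap study or the second of the transgenic study.

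Slc25a30, a carrier of the inner membrane, read 5.45 and 5.61 in TgSREBP-1a, with 5.21 and 5.54 in TgSREBP-2, against 6.43 and 6.28 in wild type. It fell by 0.83 ± 0.17 in TgSREBP-1a and by 0.98 ± 0.17 in TgSREBP-2 (limma, adjusted p = 0.032 and 0.041), comparisons that share their wild type arrays. Pdp2, a phosphatase that activates pyruvate dehydrogenase, read 6.21 and 6.12 in TgSREBP-1a against 6.82 and 6.87 and fell by 0.68 ± 0.13 (limma, adjusted p = 0.02). Pdp2 was also lower against wild type in TgSREBP-2 (-0.43 ± 0.13) and in Scap-/- (-0.51 ± 0.13). Neither difference was called (limma, adjusted p = 0.41 and 0.33). The calls of Coq8b, Pdp2 and Slc25a30 in TgSREBP-1a ended when any 1 of the 4 arrays compared was left out, and that of Coq8a without the second wild type or the first TgSREBP-1a array (values in the closing section). The TgSREBP-2 call of Slc25a30 ended without either wild type array, either TgSREBP-1a array or the first TgSREBP-2 array.

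In the other comparisons the lists held few calls. In TgSREBP-2 the only call over the 7 lists was Slc25a30, where 0.500% of all probe sets were called. In Scap-/- and between the transgenic lines 0 genes of the 7 lists were called. Between the lines, Dlat (0.58 ± 0.10) and Coq8b (0.54 ± 0.12) had an adjusted p under 0.05 (limma, 0.015 and 0.041). Both were higher in TgSREBP-1a without overlap but missed the minimum fold, Dlat within rounding (1.5-fold). At an unadjusted p under 0.05, limma gave 11 of 81 measured genes in Scap-/- (13.6%, against 7.74% of all probe sets). Between the lines it gave 15 (18.5%, against 14.7%). Between all pools of the studies, Higd1a, an inner membrane protein that binds complex IV, ran from 5.25 to 5.59 in the transgenic study and from 5.85 to 6.17 in the Scap study. Its difference was -0.60 ± 0.06 and was called (limma, adjusted p = 0.00045), but it dropped under 1.5-fold without the second array of any pool other than TgSREBP-1a. Of its list of 12 electron carriers and assembly factors, 5 lay lower without overlap (41.7%, against 2.97% of all probe sets), among them Ecsit of complex I assembly at -0.52 ± 0.07 (limma, adjusted p = 0.0027). This list had the largest such share. In the others it was 3 of 21 translation and RNA genes (14.3%) and 1 of 11 import chaperones and proteases (9.09%). The citric acid cycle, coenzyme Q, carrier and regulator lists had 0. Over the 7 lists, limma gave 22 of 81 genes at an unadjusted p under 0.05 (27.2%, against 21.4% of all probe sets).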

How the data were processed

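Per the labels, liver RNA of 5 mice per group was pooled and each of 5 pools was hybridised to 2 MG_U74Bv2 arrays. The files hold deposited log2 values; per the submitters' processing notes, the authors made them with RMA (background correction, quantile normalization and summary over probes) of unstated version, while the series' design text names Microarray Suite. RMA makes the distributions of the arrays equal, so a shift shared by all genes could not be seen; array medians ran from 5.625 to 5.662. No genome build was stated, so gene coordinates are given only for RefSeq promoters.

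Of 12477 probe sets, 66 controls were left out. Symbols came from the platform annotation (10581 probe sets with 1 symbol, 178 with several, 1652 with none); RefSeq (GRCm38.p6) changed 0 members' symbols. The members had 60 probe sets, and 3 further ones that matched but had several symbols were left out. All 10 arrays entered 1 fit in limma 3.58.1 (R 4.3.3), which had a coefficient for each group (lmFit, eBayes, two-sided, Benjamini-Hochberg over 12411 probe sets). Errors are limma standard errors with n = 2 arrays per group, and the number of arrays limits the precision (median standard error of a member's difference 0.12). The fit was tested on simulated data. Named were, in each comparison, the 6 members with the highest and the 6 with the lowest change, called members, and the brightest of each class; Mrps34, Mrps35, Tomm20, Ndufab1 and Ndufs3 were given values after these had been seen. Members, lists and tests were chosen with earlier results of these data known. Alternatives were other normalizations, filters, fits, call rules and arrays.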

Additional observations from a re-analysis of the deposited data

How the results depend on the processing

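The count of called members was 0 in all 5 comparisons and between all pools under median centring, repeated quantile normalization, the filter on dim probe sets, limma-trend, the mean of a gene's probe sets and, where run, only the compared arrays (not run for all pools, which use all 10). With no minimum fold it stayed 0 in the 5 comparisons and became 7 between all pools. Leaving out the dim probe sets left 26 members and gave medians of 0.126 between the transgenic lines, -0.208 between the wild type pools and -0.222 between all pools; repeated quantile normalization gave -0.115 between the wild type pools. Leaving out single arrays gave medians from -0.006 to 0.035 for TgSREBP-1a, -0.088 to 0.011 for TgSREBP-2, -0.1 to 0.008 for Scap-/-, 0.038 to 0.089 between the lines, -0.205 to -0.113 between the wild type pools and -0.154 to -0.085 between all pools. The count of calls then ran from 0 to 1 in the last 3 of these, with Mrps15 (-0.61, without the second TgSREBP-2 array), Ndufaf8 (-0.72, without the second wild type array of the Scap study) and, between all pools, Ndufs7 (-0.68, -0.67, -0.63 and -0.63 without the second Scap-/-, the second wild type array of the Scap study, the first wild type array of the transgenic study or the first TgSREBP-1a array). The causes were not tested.

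Without single arrays, 28, 23, 30, 21 and 15 of the 51 members changed sign in the 5 comparisons and 12 between all pools, all uncalled and from differences of at most 0.30 in size. Among the 12 highest and lowest members of each comparison, those that did were Mrps27 (range -0.40 to 0.14) and Tomm40l (-0.50 to 0.14) in TgSREBP-1a, Mrps15 (-0.01 to 0.34) and Cox6a1 (-0.05 to 0.38) in TgSREBP-2, Sdhb (-0.61 to 0.01) in Scap-/-, Mrps27 (-0.54 to 0.01) between the lines and Tomm40l (-0.21 to 0.43) between the wild type pools, where Mrps27 also turned to -0.03 with the mean of its probe sets. Called genes outside the members kept their direction without each array, with ranges of 0.68 to 0.72 for Coq8b, 0.59 to 0.87 for Coq8a, -0.72 to -0.63 for Pdp2 and -0.91 to -0.75 for Slc25a30 in TgSREBP-1a, -1.14 to -0.82 for Slc25a30 in TgSREBP-2, -1.05 to -0.77 for Coq8a between the wild type pools and -0.62 to -0.57 for Higd1a between all pools. Coq8a between the wild type pools was -0.91 but not called with only the compared arrays (limma, adjusted p = 0.096).

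Array numbers are shared between groups, but no label ties a number to a batch, and each comparison has only 2 pairs. Deviations of same-numbered arrays correlated at 0.411, 0.057, 0.598, 0.113 and 0.474 in the 5 comparisons. With the number as a replicate block, 2 members were called between the wild type pools, Ndufs7 (-0.69, limma, adjusted p = 0.0073) and Mrps18c (-0.62, adjusted p = 0.018), and 0 elsewhere, while calls over all probe sets were 335, 101, 91, 306 and 145 against 270, 62, 34, 231 and 63 without it.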
